A study of Mus musculus with 4 samples.

Results

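The complement genes C2, C3, C4b, C7, Cfb, Cfi, Serping1, Cd55 and Cd59a were examined in the sublingual salivary gland of Nkx2.3-/- mice. They were taken by symbol as the listed complement rows of a count table of 24411 gene symbols, and each of the 9 was found there. Of these, 5 are components (C2, C3, C4b, C7 and Cfb) and 4 are regulators (Cfi, Serping1, Cd55 and Cd59a). RNA sequencing covered 2 libraries at 32 weeks of age (replicates 3 and 4) and 2 libraries at 8 weeks (replicates 1 and 2). Every library came from a female on the C57BL/6J background, and both copies of the homeobox gene Nkx2-3 were knocked out at both ages. No gland with intact Nkx2-3 was analysed here, so the values describe the knockout gland at each age and not the effect of the knockout.

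Complement is a cascade of plasma and tissue proteins that tags microbes and damaged cells and can end in a pore through a membrane. Antibody-bound C1q starts the classical route, whose convertase is cut from C4 and C2, while the alternative route builds its convertase from C3 and factor B, and all routes meet at C3. Membrane and soluble regulators halt these enzymes or the pore on the body's own cells. Most circulating complement is made in the liver, and epithelia, fibroblasts and macrophages also make some of it locally. In saliva-producing tissue the cascade stands beside secreted antibody as part of mucosal defence.

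The windows from 250 bases before to 50 bases after the annotated start were present in RefSeq's promoter table for 4 of the 9 genes, C3, C7, Cd55 and Cd59a. C2, C4b, Cfb, Cfi and Serping1 had no entry. The windows of C3, the most counted component, and of Cd55 and Cd59a, regulators that varied little between libraries, are shown 5′ to 3′ on the gene's strand in build GRCm38.p6. Capitals mark matches on either strand to 6 motifs, the TATA box (TATAAA), GC box (GGGCGG), C/EBP (TTGCNNAA), GAS (TTCNNNGAA), ISRE (GAAANNGAA) and NF-kB (GGGNNTTCC).
C3 (chr17:57228087-57228386, minus strand): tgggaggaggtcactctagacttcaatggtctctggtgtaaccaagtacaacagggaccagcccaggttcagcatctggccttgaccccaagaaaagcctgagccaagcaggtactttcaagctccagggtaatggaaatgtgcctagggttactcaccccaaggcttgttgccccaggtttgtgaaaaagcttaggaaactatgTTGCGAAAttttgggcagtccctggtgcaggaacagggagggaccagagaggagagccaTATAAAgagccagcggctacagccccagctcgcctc
Cd55 (chr1:130462695-130462994, minus strand): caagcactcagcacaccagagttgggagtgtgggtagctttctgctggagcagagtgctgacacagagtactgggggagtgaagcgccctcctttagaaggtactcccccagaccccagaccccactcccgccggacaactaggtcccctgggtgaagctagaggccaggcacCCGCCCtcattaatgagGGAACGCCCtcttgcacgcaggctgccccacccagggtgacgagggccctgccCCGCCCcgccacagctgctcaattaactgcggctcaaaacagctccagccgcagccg
Cd59a (chr2:104095551-104095850, plus strand): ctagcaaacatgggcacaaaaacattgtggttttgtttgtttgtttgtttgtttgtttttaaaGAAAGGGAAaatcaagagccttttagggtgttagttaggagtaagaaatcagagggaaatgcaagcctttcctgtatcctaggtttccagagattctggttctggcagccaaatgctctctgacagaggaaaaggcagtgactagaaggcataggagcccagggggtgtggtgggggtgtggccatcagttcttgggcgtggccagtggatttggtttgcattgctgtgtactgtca

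The 3 windows differed in base composition and in the motifs matched. The C3 window was 53.3% G or C with 3 CpG dinucleotides. It held 1 C/EBP match, whose first base lay 45 bases before the annotated start, and 1 TATA match, which began at base 15 after it. The Cd55 window was 63.3% G or C with 12 CpG and held 2 GC box matches and 1 NF-kB match, while the Cd59a window was 45.7% G or C with 1 CpG and held 1 ISRE match. None of these matches overlapped another. Among all 32851 windows of the table, 13.62% held the TATA letters, 35.66% the GC box, 10.8% the C/EBP letters, 5.82% the NF-kB letters and 8.56% the ISRE letters. The GAS letters, held by 8.3% of windows, were not found in these 3. A match of this kind is a description of the letters and not evidence that a factor binds.

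The libraries held 16484772 and 16111122 counts at 32 weeks and 12925869 and 14265485 counts at 8 weeks. Nkx2-3 itself had 21 and 29 counts at 32 weeks and 31 and 28 counts at 8 weeks. Which part of the gene was removed, a point not given in the sources used here, decides whether such reads can come from the knockout allele, so they do not check the labels. Muc19, the gel-forming mucin that defines this mucous gland, stood at 20300 and 16700 CPM in the 32-week libraries, against 12000 and 13900 CPM in the 8-week libraries, where CPM is counts per 1000000 of the library's TMM-scaled total. Across 12810 genes, which are not independent replicates, Pearson's r of log2 CPM was highest between 32-week replicate 4 and 8-week replicate 1 (0.987) and lowest between the pair of 8-week libraries (0.962). The 3 values that involve 8-week replicate 2 were 0.962 to 0.974 and the other 3 were 0.982 to 0.987, so that library stood apart. In it the summed level of 8 B and plasma cell markers was lowest, at 1280 and 1450 CPM in the 32-week libraries, against 1630 and 529 CPM in the 8-week libraries, and that of 7 duct markers was highest, at 480 and 403 CPM in the 32-week libraries, against 413 and 758 CPM in the 8-week libraries. Jchain, the joining chain of secreted antibody, stood at 512 and 799 CPM in the 32-week libraries, against 919 and 73.7 CPM in the 8-week libraries. The libraries most alike were therefore of different ages. For the 9 genes and their component to regulator ratio, age differences are also given with single libraries left out where that turns the direction. For most other genes and lists below they are given from all 4 libraries only, so their directions may rest on 1 library. Nothing in the labels ties the libraries to separate animals, so each p-value measures library-to-library spread, which may be technical.

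Among the components, C3 carried most of the reads and had the widest range between libraries. C3 (chromosome 17, 57343397 to 57367559, minus strand, NCBIM37) encodes the protein on which all routes of the cascade converge. It had 355 and 763 counts at 32 weeks and 532 and 244 counts at 8 weeks, or 24.5 and 44.3 CPM in the 32-week libraries, against 39.2 and 16.8 CPM in the 8-week libraries. The high libraries were 32-week replicate 4 and 8-week replicate 1, and the ages overlapped. The exact Poisson 95% intervals, which cover counting error only, ran from 41.3 to 47.6 CPM in 32-week replicate 4 and from 22 to 27.2 CPM in 32-week replicate 3, so the spread within an age was larger than counting error. C3 averaged 34.4 ± 14 CPM at 32 weeks and 28 ± 15.8 CPM at 8 weeks (SD, n = 2 each).

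C4b (chromosome 17, 34865325 to 34880827, minus strand) encodes C4, which supplies a subunit of the classical and lectin convertase. It had 106 and 269 counts at 32 weeks and 100 and 88 counts at 8 weeks, which is 7.32 and 15.6 CPM in the 32-week libraries, against 7.37 and 6.07 CPM in the 8-week libraries. One library, 32-week replicate 4, stood high, and the other 3 lay close together. C4a, a near-identical copy 65209 bases away that the annotation gives no coding transcript, had 0 and 3 counts at 32 weeks and 9 and 3 counts at 8 weeks. The treatment of reads that match both copies was not given in the sources used here, so the split between C4b and C4a is uncertain.

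Cfb (34993319 to 34999463) and C2 (34999549 to 35035397) lie head to tail on the minus strand of the same stretch of chromosome 17, the class III part of the major histocompatibility complex, with 85 bases between them. They encode related serine proteases, factor B of the alternative convertase and C2 of the classical one. Cfb had 38 and 77 counts at 32 weeks and 43 and 40 counts at 8 weeks, or 2.63 and 4.47 CPM in the 32-week libraries, against 3.17 and 2.76 CPM in the 8-week libraries. Its highest library was again 32-week replicate 4, and the ages overlapped because 32-week replicate 3 was the lowest of the 4. C2 had 29 and 34 counts at 32 weeks and 24 and 23 counts at 8 weeks, or 2 and 1.98 CPM in the 32-week libraries, against 1.77 and 1.59 CPM in the 8-week libraries. Both 32-week libraries lay above both 8-week libraries for C2, yet its counting interval in 8-week replicate 2, from 1.01 to 2.38 CPM, took in the values of all the others. The annotation also holds Gm20547, a coding gene model on the same strand that overlaps both C2 and Cfb, so reads of the pair may have been divided or set aside in the counting.

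C7 (chromosome 15, 4938762 to 5013740, minus strand), which joins the membrane attack complex, had 0 counts in each of the 4 libraries. A floor of 3 counts corresponds to 0.207 and 0.174 CPM in the 32-week libraries and 0.221 and 0.207 CPM in the 8-week libraries, and the exact Poisson 95% intervals of these zeros reach up to 0.255 and 0.214 CPM in the 32-week libraries and 0.272 and 0.255 CPM in the 8-week libraries. C7 was the one gene of the 9 that the low-count filter kept out of the test.

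Among the regulators, the highest library exceeded the lowest by 1.37-fold for Cd59a, 1.49-fold for Serping1 and 1.32-fold for Cd55, and by 3.28-fold for Cfi. Cd59a (chromosome 2, 103935958 to 103955511, plus strand) encodes a membrane-anchored protein that stops the pore from assembling. Its counts were 348 and 488 at 32 weeks and 280 and 341 at 8 weeks, or 24 and 28.4 CPM in the 32-week libraries, against 20.6 and 23.5 CPM in the 8-week libraries. Both 32-week libraries lay above both 8-week libraries, yet the nearest libraries of different age stood at 24 and 23.5 CPM. Their counting intervals, 21.6 to 26.7 and 21.1 to 26.2 CPM, overlapped. Its neighbour Cd59b, a close paralog 4613 bases away, had between 4 and 10 counts in each library.

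Serping1 (chromosome 2, 84605544 to 84615601, minus strand) encodes C1 inhibitor, a serpin that blocks the proteases C1r and C1s. Serping1 stood at 14.4 and 21.4 CPM at 32 weeks (208 and 369 counts) and at 15.9 and 14.6 CPM at 8 weeks (216 and 212 counts). As for C3, C4b and Cfb, 32-week replicate 4 was its highest library, and the ages overlapped.

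Cd55 (chromosome 1, 132335604 to 132359321, minus strand) encodes decay-accelerating factor, a membrane protein that takes convertases apart. Its levels were 10.3 and 11.4 CPM at 32 weeks (149 and 197 counts) and 9.95 and 8.69 CPM at 8 weeks (135 and 126 counts). The ages did not overlap, and the nearest libraries of different age, at 10.3 and 9.95 CPM, differed by less than their counting intervals. A noncoding gene model on the opposite strand, Gm16083, overlaps 169 bases of the locus, and reads of the opposite strand may have been counted, since the strand setting was not given in the sources used here.

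Cfi (chromosome 3, 129539655 to 129578246, plus strand) encodes factor I, the protease that cuts C3b and C4b into inactive forms. It had 26 and 38 counts at 32 weeks and 14 and 49 counts at 8 weeks, or 1.8 and 2.21 CPM in the 32-week libraries, against 1.03 and 3.38 CPM in the 8-week libraries. The highest and the lowest library were both 8-week libraries, and their counting intervals, 0.564 to 1.73 and 2.5 to 4.47 CPM, did not meet. The 8-week order was the opposite of that of C3, which was low where Cfi was high.

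**Figure D1:**
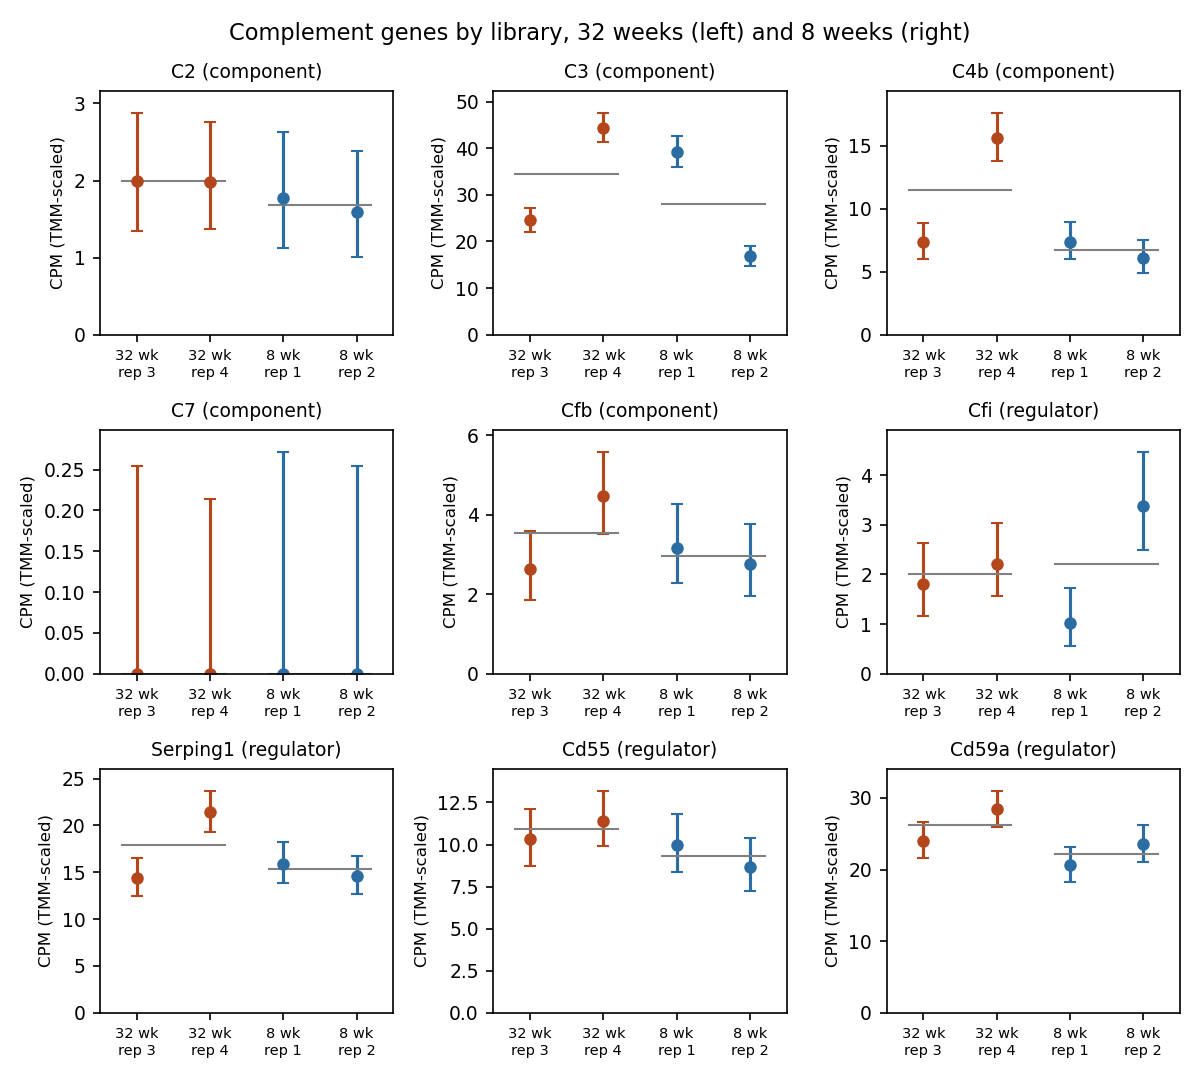
TMM-scaled CPM of each of the 9 genes (vertical axis) by library, with the 32-week libraries left in orange and the 8-week libraries right in blue. Bars are exact Poisson 95% intervals (counting error only) and grey lines the mean of each age. C3 ranges from 16.8 to 44.3 CPM with the ages overlapping, while Cd55 stays between 8.69 and 11.4 CPM and C7 is at 0 throughout.

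Cfi had the widest range of the tested genes, 1.62 on the log2 scale between its highest and lowest library, against 1.39 for C3, 1.35 for C4b, 0.75 for Cfb, 0.57 for Serping1, 0.46 for Cd59a, 0.39 for Cd55 and 0.32 for C2. Among 6683 genes of at least 10 CPM on average, the profiles nearest to that of Cfi over the 4 libraries were those of Emd, E030024N20Rik, Ap1m1, Psap and Fn3krp, with root mean square distances of 0.116 to 0.206 in centred log2 CPM. Psap, for example, stood at 265 and 370 CPM in the 32-week libraries, against 222 and 601 CPM in the 8-week libraries. These likenesses rest on 4 libraries and say nothing about shared function.

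Levels of different genes were compared per length, as RPKM, the TMM-scaled CPM per kilobase of the longest coding transcript. Averaged over the 4 libraries, Cd59a was highest at 13.4 RPKM, followed by Serping1 at 9.38, C3 at 6.09, Cd55 at 3.99, C4b at 1.69, Cfb at 1.18, Cfi at 1.01 and C2 at 0.694 RPKM, with C7 at 0. Cd59a exceeded Serping1, Serping1 exceeded C3, and C4b exceeded Cfb within each of the 4 libraries, although the ranges over libraries overlapped in these pairs. Cd55 lay above C4b with no overlap. C3 and Cd55, Cfb and Cfi, and Cfi and C2 each kept their order in 3 of the 4 libraries only, and their places in the order are not separated beyond the spread.

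Regulators outweighed components per length in every library. Summed RPKM of the components was 7.85 and 13.9 at 32 weeks and 10.8 and 6.01 at 8 weeks. That of the regulators was 26.4 and 33.4 at 32 weeks and 24.9 and 26.4 at 8 weeks. The ratio of components to regulators in summed RPKM was 0.298 and 0.417 at 32 weeks and 0.436 and 0.228 at 8 weeks. C3 alone made up 60.9% and 62.1% of the component RPKM at 32 weeks and 70.5% and 54.6% at 8 weeks.

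**Figure D2:**
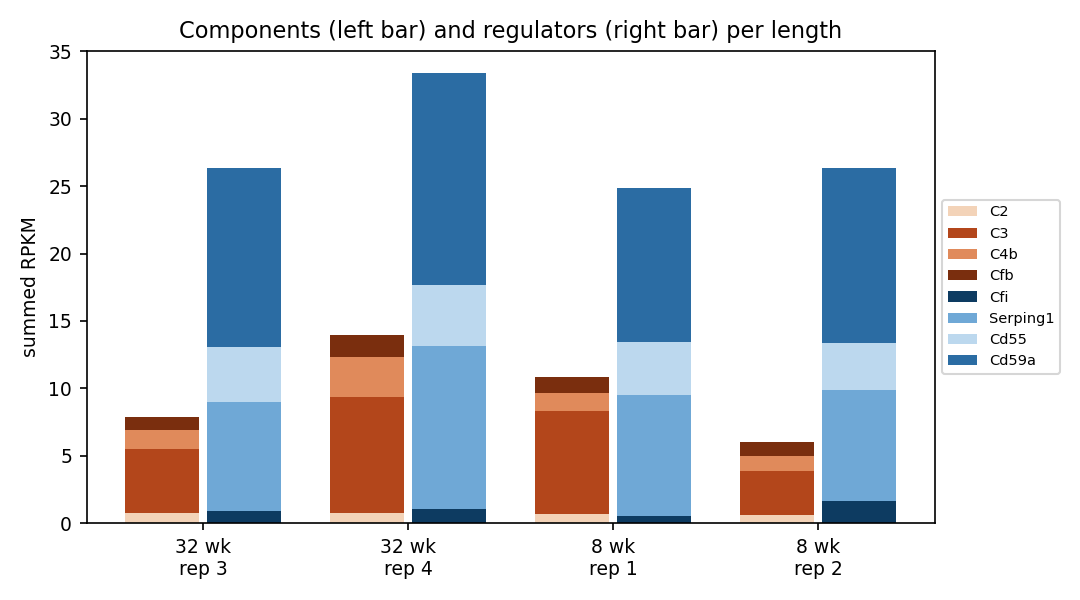
Summed RPKM (vertical axis) of the components C2, C3, C4b and Cfb (left bar, orange shades) and of the regulators Cfi, Serping1, Cd55 and Cd59a (right bar, blue shades) in each library, 32 weeks left of 8 weeks. C7, at 0, is not drawn. The regulator bars stand between 24.9 and 33.4 RPKM and the component bars between 6.01 and 13.9 RPKM.

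In TMM-scaled CPM, where long transcripts weigh more, the log2 ratio of summed components to summed regulators was -0.47 and 0.07 at 32 weeks and 0.12 and -0.88 at 8 weeks. The mean of the ratio was -0.2 at 32 weeks and -0.38 at 8 weeks, a difference of 0.18 on the log2 scale. The pooled SD within an age was 0.566, so the difference between ages was smaller than the spread between libraries of one age. Leaving out 8-week replicate 2 gave a difference of -0.32, and leaving out 32-week replicate 4 gave -0.09, so its sign turned. No p is given for a score over chosen genes, and with 2 libraries against 2 an exact permutation test cannot go below 0.333.

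The age comparison asks whether the complement genes of the knockout gland stood higher or lower at 32 weeks than at 8 weeks. With edgeR's quasi-likelihood test and Benjamini-Hochberg adjustment over 12810 genes, 0 of the 8 tested complement genes passed an adjusted p of 0.05. Over all genes tested 0 passed as well, which is 0% of those tested, and 174 genes (1.36%) had an unadjusted p under 0.05, none of them among the 8. DESeq2 called 0 of the 8 (3 genes of 18104 in all, 0.0166%, with 89, or 0.492%, at an unadjusted p under 0.05) and limma-voom called 0 of the 8 (0 of 12810 in all, with 177, or 1.38%, at an unadjusted p under 0.05).

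C4b had the largest difference, with a mean of 11.5 ± 5.88 CPM at 32 weeks and 6.72 ± 0.92 CPM at 8 weeks (SD, n = 2 each). Its log2 fold change, 32 weeks over 8 weeks, was 0.78 (SE 0.37, 95% interval -0.08 to 1.63, edgeR adjusted p = 0.999). That value rested on 1 library, since leaving out 32-week replicate 4 gave 0.13, while leaving out 32-week replicate 3 gave 1.23. C3 had a log2 fold change of 0.3 (SE 0.42, 95% interval -0.69 to 1.29, edgeR adjusted p = 0.999), and its sign turned, to -0.19 without 32-week replicate 4 and to -0.18 without 8-week replicate 2. Without 8-week replicate 1 the C3 value was 1.04 (edgeR adjusted p = 0.115), and without 32-week replicate 3 it was 0.67. Each such fit leaves 1 library at an age, which is assumed to vary like the other age.

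The remaining genes had intervals that spanned 0 as well. Cfb had a log2 fold change of 0.27 with a 95% interval of -0.59 to 1.12, and C2 one of 0.25 with an interval of -0.61 to 1.1. Among the regulators, Cd59a had 0.25 (interval -0.21 to 0.71), Serping1 0.23 (interval -0.33 to 0.8) and Cd55 0.22 (interval -0.28 to 0.73). Cfi had -0.14 (interval -1.42 to 1.14), the single negative value. Without 32-week replicate 4 the value was -0.17 for Cfb and -0.08 for Serping1, and that of Cfi went to 0.96 without 8-week replicate 2. The intervals of Cd59a and Cd55 leave room for differences of up to 0.71 and 0.73 on the log2 scale, so small changes with age were not detectable at this depth and number of libraries. Those of C3, C4b and Cfi reach 1.29, 1.63 and -1.42, so larger changes in these genes could have been missed as well.

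**Figure D3:**
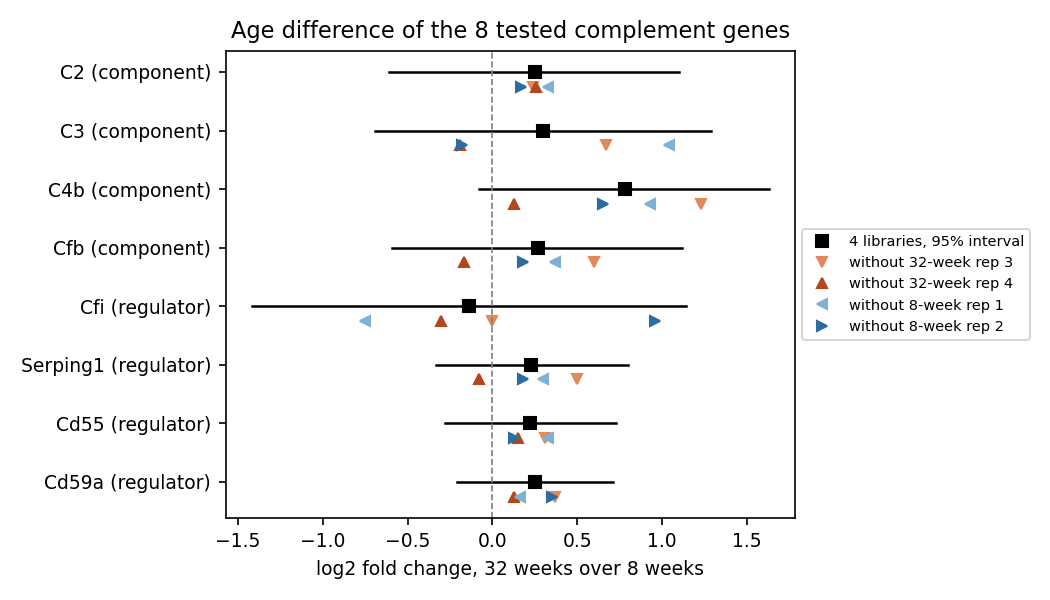
Log2 fold change, 32 weeks over 8 weeks (horizontal axis), of the 8 tested complement genes. Black squares and lines give edgeR estimates with 95% intervals from all 4 libraries, and coloured triangles give the estimate with 1 library left out. Each interval takes in 0, and the estimates of C3 spread from -0.19 to 1.04 and those of Cfi from -0.75 to 0.96 with the library left out.

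Of the 8 tested genes, 7 had a positive fold change, against 48.3% of all genes tested. Both 32-week libraries lay above both 8-week libraries for C2, Cd55 and Cd59a, which is 3 of 8 against 14.4% of all genes, and 0 of the 8 had both below, against 14.2% of all genes. The median log2 fold change was 0.283 for the 4 tested components and 0.227 for the 4 regulators, beside -0.011 for all genes tested. The median of the 8 was 0.246, and without 32-week replicate 4 it was 0.02. That library was the highest of the 4 for 6 of the 8 genes (C3, C4b, Cfb, Serping1, Cd55 and Cd59a), against 20.5% of all genes. The fold between the highest and the lowest library had a median of 2.14 over the tested components, 1.43 over the regulators and 1.47 over all genes tested.

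The rest of the pathway was read from 50 other complement genes, of which 25 passed the low-count filter. In edgeR 0 of the 25 passed in either direction, again beside 0% of all genes, and 0 had an unadjusted p under 0.05. Of these 25 genes, 14 had a positive and 11 a negative fold change, with a median log2 fold change of 0.07. By role, 5 of 8 initiation genes and 6 of 7 receptors had a positive value (medians 0.27 and 0.2). Of the 7 other regulators 1, Clu at 0.31, was positive and 6 were negative, with a median of -0.17, while the 4 regulators of the 9-gene set had a median of 0.227. Both 32-week libraries lay above both 8-week libraries for 4 of the 25 and below for 0, beside 14.4% and 14.2% of all genes. A further 25 genes stayed under 1 CPM in each library.

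The other regulators included the most abundant complement gene by CPM, Cr1l, which encodes Crry, the rodent membrane inhibitor of C3 convertases. Cr1l stood at 63.8 and 67.6 CPM in the 32-week libraries, against 61.6 and 70.6 CPM in the 8-week libraries, with a log2 fold change of -0.01 (95% interval -0.46 to 0.45). Its highest library exceeded its lowest by 1.15-fold, against 1.26- to 3.28-fold for the 8 tested genes above, and its mean level of 39.7 RPKM was above that of Cd59a. Clu, clusterin, which binds the terminal complex, stood at 31 and 53.2 CPM in the 32-week libraries, against 33.7 and 34.4 CPM in the 8-week libraries, again with 32-week replicate 4 highest. Its positive fold change rested on that library, since 32-week replicate 3 lay below both 8-week libraries. Thbd, thrombomodulin, had 7.94 and 8.89 CPM in the 32-week libraries, against 11.8 and 7.24 CPM in the 8-week libraries. For Cr1l, Clu and Thbd the ages overlapped.

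The initiators of the classical route were present, and the 8 lectin-route genes named below were not detected above a few counts. C1qb, 1 of the 3 chains of C1q, stood at 36.9 and 62.1 CPM in the 32-week libraries, against 48.9 and 30.8 CPM in the 8-week libraries, with a mean of 41 RPKM. C1qc had 14.2 and 19.8 CPM in the 32-week libraries, against 17.5 and 7.04 CPM in the 8-week libraries, and C1qa 11.2 and 15.6 CPM in the 32-week libraries, against 15.6 and 5.31 CPM in the 8-week libraries. All 3 chains were lowest in 8-week replicate 2. Without 8-week replicate 1, edgeR called C1qa and C1qc higher at 32 weeks (log2 fold change 1.34 and 1.27, adjusted p = 0.0447 for each), in a fit that called 285 genes (2.15%).

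The proteases C1s1 and C1rl were flatter, at 1.36-fold and 1.29-fold between the highest and the lowest library, against 2.02- to 2.94-fold for the C1q chains. Of the other C1r and C1s genes, C1ra differed by 1.58-fold and C1s2, at 6 to 12 counts in a library, by 2-fold. C1s1, the protease that cuts C4 and C2, stood at 12.8 and 14.1 CPM in the 32-week libraries, against 17.3 and 13.2 CPM in the 8-week libraries. C1rl, a C1r-like protease, stood at 17.1 and 15.3 CPM in the 32-week libraries, against 14.4 and 13.2 CPM in the 8-week libraries. Of the lectin-route genes Mbl1, Mbl2, Masp1, Masp2, Fcna, Fcnb, Colec10 and Colec11, 3 had 0 counts in each library and the highest count was 8.

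Beyond C3, the terminal route was near the detection limit. Of C6, C7, C8a, C8b, C9 and Hc, which encodes C5, 2 genes (C7 and C8a) had 0 counts in each library, and the highest count of the 6 in any library was 9. C8g, a small lipocalin chain of C8, was the exception, with 3.38 and 3.43 CPM in the 32-week libraries, against 1.18 and 3.1 CPM in the 8-week libraries. C3ar1, the receptor for the C3a fragment, stood at 7.94 and 10.8 CPM in the 32-week libraries, against 11.3 and 6.62 CPM in the 8-week libraries. Cd55b, a paralog of Cd55, had 0 counts in each library.

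Cfd, the protease factor D that cuts factor B, varied more than any other tested complement gene. It had 1 and 93 counts at 32 weeks and 172 and 32 counts at 8 weeks, or 0.0691 and 5.4 CPM in the 32-week libraries, against 12.7 and 2.21 CPM in the 8-week libraries. Without 32-week replicate 4 edgeR called it lower at 32 weeks (log2 fold change -6.57, adjusted p = 7.19e-10, in a fit that called 17 genes, 0.13%), and with all 4 libraries it did not pass (log2 fold change -1.4, 95% interval -4.09 to 1.29). Factor D is also known as adipsin, a product of fat cells. Of 7 adipocyte markers, 5 were highest in 8-week replicate 1, as Cfd was, and 2 (Lipe and Lep) in 32-week replicate 4. Adipoq and Car3 were among the 5, at 0.0691 and 0.232 CPM in the 32-week libraries, against 2.95 and 0.621 CPM in the 8-week libraries for Adipoq, and at 0.0691 and 2.96 CPM in the 32-week libraries, against 20.2 and 2.76 CPM in the 8-week libraries for Car3. Lipe stood at 3.87 and 5.81 CPM in the 32-week libraries, against 3.69 and 3.52 CPM in the 8-week libraries, and Lep had at most 0.116 CPM in any library. The summed level of the 7 adipocyte markers was 33.8 and 40.7 CPM in the 32-week libraries, against 64 and 28.1 CPM in the 8-week libraries, and its part in the Cfd values was not tested.

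**Figure D4:**
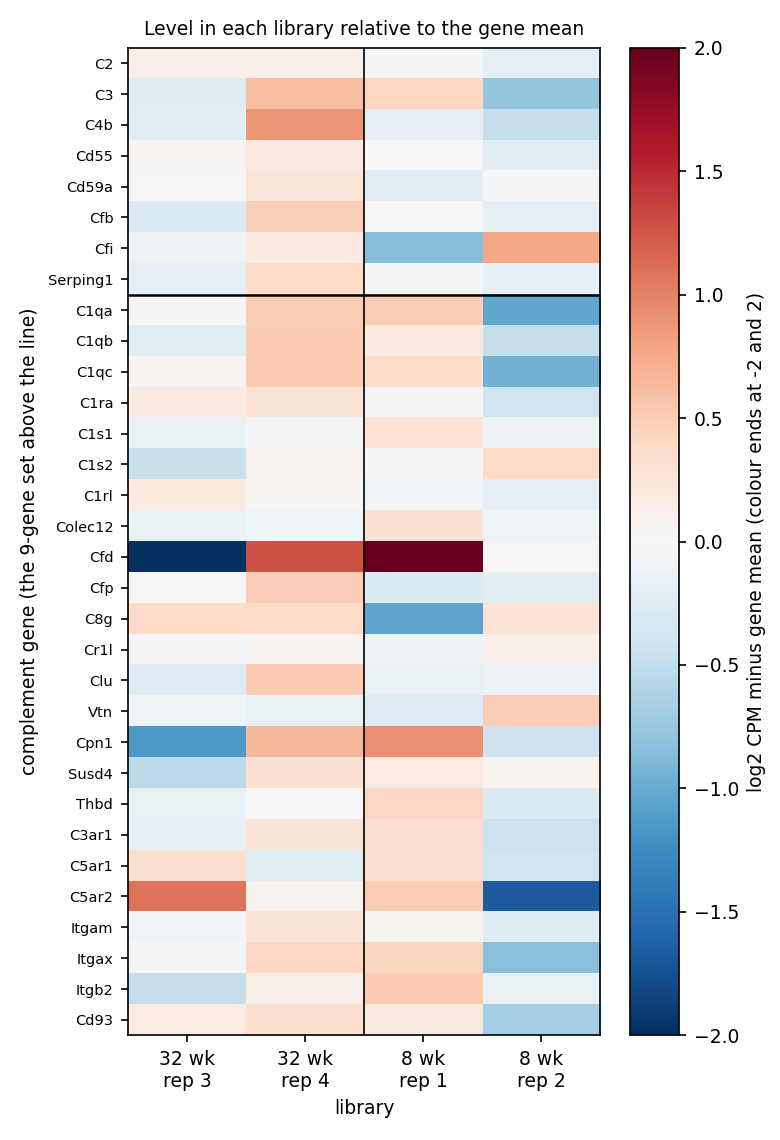
Log2 CPM of each tested complement gene minus its mean over the 4 libraries (colour), with the 32-week libraries in the left columns and the 8-week libraries in the right columns. The 8 tested genes of the 9-gene set stand above the line and 24 of the 25 others below it. C3, C4b, Cfb and Serping1 are highest in 32-week replicate 4, the C1q chains are lowest in 8-week replicate 2, and Cfd, with 1 count in 32-week replicate 3, runs past the colour range.

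Markers of several other cell types varied between the same libraries. The summed level of 10 macrophage and dendritic cell markers was 120 and 164 CPM in the 32-week libraries, against 172 and 108 CPM in the 8-week libraries, and the summed level of the 3 C1q chains was 62.2 and 97.4 CPM in the 32-week libraries, against 82.1 and 43.1 CPM in the 8-week libraries. The summed level of 8 T and NK cell markers was 4.42 and 8.14 CPM in the 32-week libraries, against 11.5 and 4.69 CPM in the 8-week libraries. C3 was high in the libraries where these 3 sums were high, although single markers differed. Lyz2 was the largest single part of the macrophage and dendritic cell sum. It ranged from 53.3 CPM in 8-week replicate 2 to 102 CPM in 8-week replicate 1. Of the 10 markers in that sum, 6 were highest in 32-week replicate 4 and 4 in 8-week replicate 1. Yet Csf1r (13.7 CPM) and Cd14 (8.92 CPM) had their lowest level in 8-week replicate 1, where C3 was high. The duct marker sum was instead highest in 8-week replicate 2, as Cfi was, although single markers differed. Fxyd2 stood at 116 and 112 CPM in the 32-week libraries, against 102 and 364 CPM in the 8-week libraries. Of the 7 duct markers 5 were highest in 8-week replicate 2 and 2 (Ascl3 and Elf5) in 32-week replicate 3. Elf5 was lowest in 8-week replicate 2. The summed level of 7 myoepithelial markers was highest in 32-week replicate 4, at 489 and 571 CPM in the 32-week libraries, against 415 and 485 CPM in the 8-week libraries. C3 divided by the macrophage marker sum was 0.204 and 0.271 at 32 weeks and 0.228 and 0.156 at 8 weeks, and C3 divided by the C1q sum was 0.394 and 0.455 at 32 weeks and 0.478 and 0.39 at 8 weeks. Between the highest and the lowest library the first ratio differed by 1.74-fold and the second by 1.22-fold, against 2.63-fold for C3 itself. Both sums were high where C3 was high, so the smaller folds follow in part from the choice of sums and say nothing about the source of C3. Of the 10 macrophage and dendritic cell markers 8 were tested and 0 passed, and no marker was at 0 in all libraries. In whole tissue, fewer cells of a type and less RNA per cell cannot be told apart, and the part of these cell types in the complement values was not tested.

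The fibroblast marker sum had another order of libraries than C3, although single markers differed. The summed level of 8 fibroblast markers was 419 and 336 CPM in the 32-week libraries, against 372 and 317 CPM in the 8-week libraries, highest in 32-week replicate 3, where C3 was the second lowest. Dcn made up most of that sum, at 219 and 204 CPM in the 32-week libraries, against 218 and 177 CPM in the 8-week libraries. Of the 8 markers 5 were highest in 32-week replicate 3 and 2 (Fbln1 and Dpt) in 32-week replicate 4. Dpt had the library order of C3, at 8.36 and 11.2 CPM in the 32-week libraries, against 9.66 and 6.14 CPM in the 8-week libraries, and the part of fibroblasts in the C3 values was not tested. Of 6 hepatocyte markers, Serpina1a had 0 counts in each library, Alb had 1 count in 8-week replicate 2 alone, and the highest count of any was 2, so liver transcripts were at or near 0 beside these complement genes. The summed level of 8 submandibular and parotid markers was 176 and 131 CPM in the 32-week libraries, against 600 and 484 CPM in the 8-week libraries. These neighbouring-gland transcripts were thus higher in both 8-week libraries, and their part in the complement values was not tested.

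Genes of lists commonly induced beside complement lay on both sides of the age comparison. Of 19 interferon gamma response genes 17 were tested and 0 passed. Fold changes were positive for 8 and negative for 9, with a median of -0.05 on the log2 scale. Both 32-week libraries lay above both 8-week libraries for 3 of the 17 (Irf8, Psmb9 and Ciita) and below for 3 (Gbp6, Gbp7 and Igtp), beside 14.4% and 14.2% of all genes. Irf1, a transcription factor of that response, stood at 51.1 and 49.7 CPM in the 32-week libraries, against 50.6 and 47.2 CPM in the 8-week libraries, and Irgm1, an interferon-induced GTPase, at 40.1 and 21.3 CPM in the 32-week libraries, against 25.3 and 53.5 CPM in the 8-week libraries. Of 14 acute phase and NF-kB target genes 6 were tested and 0 passed, with a median log2 fold change of 0.16. Both 32-week libraries lay above for Nfkbia and Lcn2 and below for 0 of the 6. Nfkbia, the inhibitor that NF-kB induces, stood at 66.5 and 59.8 CPM in the 32-week libraries, against 49.5 and 52 CPM in the 8-week libraries. Hp, haptoglobin, stood at 11.1 and 5.11 CPM in the 32-week libraries, against 13 and 9.8 CPM in the 8-week libraries. In 32-week replicate 4, where C3, C4b, Cfb and Serping1 were highest, 3 of the 17 tested interferon gamma genes (Irf8, Iigp1 and Psmb8) and 2 of the 6 acute phase and NF-kB genes (Icam1 and Cxcl1) were highest too, beside 20.5% of all genes. The part of either response in the complement values was not tested. Apart from Irf1, Irgm1, Nfkbia and Hp, the genes of these lists were named after their values were seen.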

How the data were processed

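RNA sequencing covered 4 sublingual gland libraries, 2 at 32 weeks and 2 at 8 weeks. Per the labels' protocols, RNA was extracted with Trizol from flash-frozen glands, and 1 ug went into Illumina TruSeq libraries. Reads were aligned with STAR to mm9, per the submitters' processing notes. The counting tool, annotation, strand setting and treatment of multiply mapped reads were not given in the sources used here. As the values show, the authors deposited whole-number counts per gene symbol, with no normalization.

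From these counts, edgeR 4.0.16 (R 4.3.3) gave TMM factors and a filter on low counts (filterByExpr with its defaults), then the quasi-likelihood test with age as the only term, and adjustment over 12810 genes at 0.05. Standard errors came from the fold change and its F statistic. RPKM and positions used GENCODE vM1 on NCBIM37, the assembly that mm9 names. Promoters came from RefSeq (GRCm38.p6). Alternatives were RLE factors, total counts, the 10 most abundant genes left out, other filters, DESeq2 1.42.0, limma-voom (limma 3.58.1) and each library left out. Figures were drawn with matplotlib 3.10.9.

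The genes, lists and tests were chosen with earlier results of these data known. Other complement genes were named if among the 10 with the most CPM (1 of them is counted but not reported singly here), and from the interferon gamma and acute phase lists the 2 with the most CPM. C8g, Cfd, the genes at or near 0, Adipoq, Car3, Lipe, Lep, Dcn, Fbln1, Dpt, Jchain, Alb and Serpina1a were named after their values were seen, or as paralogs. Fxyd2, Ascl3, Elf5, Lyz2, Csf1r, Cd14, C1ra and C1s2 were also named after their values were seen.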

Additional observations from a re-analysis of the deposited data

How the results depend on the processing

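No paired analysis was possible because the replicate numbers in the labels (3 and 4 at 32 weeks, 1 and 2 at 8 weeks) are shared by no pair of ages. The count of complement genes called among the 8 tested was 0 under every alternative run. Over all genes the count was 0 in the main test, 0 with RLE factors, the 10 most abundant genes left out, a filter of 1 CPM in 3 libraries and limma-voom, 10 with total counts only, 7 with no low-count filter and 3 with DESeq2, and it ranged from 6 (without 8-week replicate 2) to 285 (without 8-week replicate 1) with 1 library left out. Among the 50 other complement genes it ranged from 0 to 2 with 1 library left out, with Cfd called without 32-week replicate 4 and C1qa and C1qc without 8-week replicate 1, and was 0 otherwise.

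With 1 library left out, log2 fold changes ranged from -0.19 to 1.04 for C3, from 0.13 to 1.23 for C4b, from -0.17 to 0.6 for Cfb, from 0.17 to 0.33 for C2, from -0.75 to 0.96 for Cfi, from -0.08 to 0.5 for Serping1, from 0.13 to 0.33 for Cd55 and from 0.13 to 0.37 for Cd59a. The sign of Cfi also turned with limma-voom (0.07). Of the single-gene values under alternatives, 7 turned sign and 81 kept it, and none passed the threshold. The median of the 8 ranged from 0.02 to 0.43 and the difference in component to regulator ratio from -0.32 to 0.68. The cause of these shifts was not tested beyond the library left out. Depth limits C2, Cfi and Cfb most, with 14 to 77 counts in a library.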
